A study of Rattus norvegicus with 6 samples.

Results

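The 10 genes described here carry iron into cells, store it, release it from haem, sense it or return it to the blood: Tfrc, Slc11a2, Slc11a1, Ftl1, Fth1, Ncoa4, Hmox1, Slc40a1, Cp and Ireb2. They were taken by symbol from the deposited tables of 34538 genes, in which each symbol had 1 row. The libraries came from poly-T selected RNA of 1 cm of femur around a fracture in female Sprague Dawley rats. All rats had both ovaries removed at 8 weeks of age to induce osteoporosis, and 12 weeks later the left femur was cut at midshaft and fixed with a nail of 1.2 mm. The Gel group (3 libraries, treatment "control" in the labels) was given the gel alone, and the MgPA-Gel group (3 libraries) received MgPA-Gel, which the title calls a hydrogel adhesive made with coordination compounds of plant phosphate, injected around the break. The labels used here state neither when bone was taken nor whether each library is from its own rat. The p-values therefore measure only how far these libraries spread, which may be technical. No library here came from intact bone or from rats with ovaries, so levels can be compared between the 2 gels only.

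Iron travels in blood bound to transferrin and enters most cells when the transferrin receptor carries it into endosomes, from which a proton-coupled metal transporter moves it into the cytosol. Iron that is not used is stored in ferritin, a shell of heavy and light chains, and leaves the cell through ferroportin. Iron regulatory proteins tie these steps together by binding hairpins in mRNAs: in iron-poor cells they protect the transferrin receptor mRNA from decay and block translation of ferritin, so ferritin mRNA and ferritin protein need not move together. Macrophages of marrow and spleen recycle iron from the haem of old red cells, erythroblasts take up iron for haemoglobin, and in mice osteoclasts raise the transferrin receptor as they mature.

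Total counts were 13629242 to 18197777 per library. Values between libraries are given as CPM (counts scaled to library size, the sizes adjusted by the TMM method), and fold changes are MgPA-Gel over Gel on the log2 scale with the standard error (SE). Osteoblast markers were present in every library (8 of 8 matched by symbol, summed level 36056 to 103346 CPM), as were osteoclast markers (8 of 8, 2656 to 18566 CPM). Hepatocyte markers (5 of 6 matched) summed to 0.404 to 9.56 CPM, mostly from Serpina1 in MgPA-Gel 1 (9.38 CPM), with Alb and Ttr at 0 in all 6 libraries. Some libraries stood apart in tissue content or RNA: MgPA-Gel 1 in skeletal muscle fibre markers (41630 CPM summed over 9 of 12 markers matched, against 11.9 to 524 in Gel and 106 and 1460 in the other MgPA-Gel libraries), MgPA-Gel 2 in neutrophil markers (3257 CPM over 12 of 12, against 104 to 529 in Gel and 899 and 306 CPM for the other MgPA-Gel libraries), and Gel 1, together with MgPA-Gel 1, in the share of counts from the mitochondrial chromosome (24.0% and 25.9%, against 5.29% to 8.83%). In bulk tissue, fewer cells of a type and less RNA per cell cannot be told apart.

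Of the 10 genes, 8 had counts and passed the filter on low counts, and Fth1 and Slc40a1 were listed at 0 counts in all 6 libraries. Per gene length, in FPKM (the deposited fragments per kilobase of gene, scaled to library size), the ferritin light chain Ftl1 was far above the rest, with a mean of 3445 over the 6 libraries and a range of 1986 to 4557. It ranked 17 among all genes. Hmox1 (mean 170, range 57.5 to 344 FPKM) and Tfrc (149, range 49.9 to 258) came next, and Hmox1 was the higher of this pair in only 3 of 6 libraries. Ncoa4 (41.3 FPKM, range 35.4 to 51.9) and Cp (32.9, range 25.2 to 42.8) overlapped, with Ncoa4 higher in 5 of 6. Ireb2 (12.8), Slc11a2 (10.3) and Slc11a1 (8.12) were the lowest, and their ranges overlapped in turn (8.18 to 16.1, 6.12 to 19.0 and 4.85 to 14.4 FPKM). Neighbours in this order kept it in 6 of 6 libraries for Ftl1 over Hmox1, Tfrc over Ncoa4 and Cp over Ireb2, although the ranges of Tfrc and Ncoa4 overlapped. The FPKM of Ftl1 rests on a deposited gene length of 552 bases, the shortest of the 8.

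**Figure D1:**
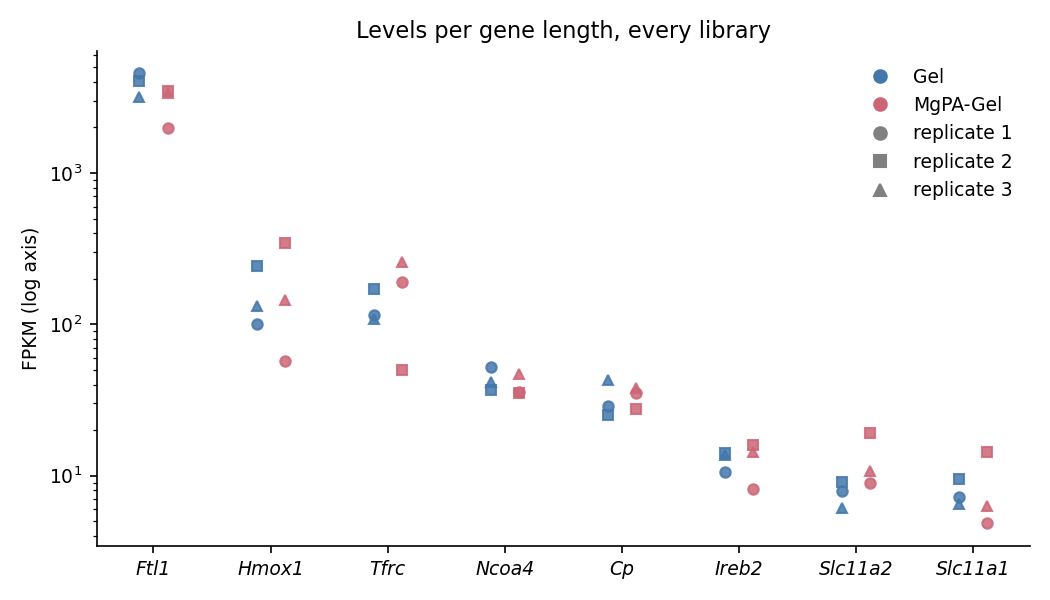
FPKM on a log axis of the 8 iron genes with counts, ordered by their mean, with 1 point for each of the 6 libraries (colour, group; shape, replicate number). Ftl1 lies between 1986 and 4557 FPKM in every library, while Hmox1 and Tfrc overlap and Ireb2, Slc11a2 and Slc11a1 share the lowest range.

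The transferrin receptor Tfrc (ENSRNOG00000001766, chromosome 11, 71397383 to 71419223, minus strand, in the coordinates of the deposited table, whose genome build the labels used here do not name) was at 546, 823 and 519 CPM in Gel 1, 2 and 3 and at 903, 241 and 1230 CPM in MgPA-Gel 1, 2 and 3. The MgPA-Gel libraries thus held both the highest and the lowest level of the 6, with a 5.11-fold range among themselves against 1.59-fold among the Gel libraries. The means were 630 ± 168 and 791 ± 504 CPM (SD, n = 3 each), and the log2 fold change of 0.33 ± 0.56 (95% interval -1.01 to 1.67) was within the spread of the libraries (edgeR adjusted p = 0.998). Leaving out MgPA-Gel 2 gave 0.76, and leaving out MgPA-Gel 3 turned it to -0.14. Of the 8 osteoclast markers, 6 were, like Tfrc, lowest in MgPA-Gel 2 and highest in MgPA-Gel 3, while Oscar was highest in MgPA-Gel 2 (63.7 CPM) and Dcstamp was near 0. Ctsk, the collagen-degrading protease of osteoclasts, was at 1470 CPM in MgPA-Gel 2 and 10837 in MgPA-Gel 3, with 4401 to 6184 in the other 4 libraries, and Acp5, their acid phosphatase, was at 473 and 3730 CPM there. The summed osteoclast level ran from 8239 to 11651 CPM in Gel and was 9461, 2656 and 18566 CPM in MgPA-Gel 1, 2 and 3; its part in the level of Tfrc was not tested. This sum shared with Tfrc only the highest and the lowest library. Within Gel it was lowest in Gel 2 (8239 CPM), where Tfrc was the highest of that group (823 CPM). The erythroid sum was also lowest in Gel 2 (347 CPM over 11 of 12 markers matched), and it was highest in MgPA-Gel 1 (10412 CPM). Its part in the level of Tfrc was not tested either.

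Slc11a2 (ENSRNOG00000019550, chromosome 7, 142025815 to 142063212, minus strand), also known as DMT1, carries ferrous iron out of the endosome after transferrin uptake. It stood at 41.3, 47.7 and 32.2 CPM in Gel 1, 2 and 3 and at 47.1, 101 and 56.4 CPM in MgPA-Gel 1, 2 and 3. The groups overlapped by a narrow margin, MgPA-Gel 1 lying just under Gel 2, and MgPA-Gel 2 was well above the other 5 libraries. Means were 40.4 ± 7.75 and 68.1 ± 28.8 CPM, with a log2 fold change of 0.75 ± 0.32 (95% interval -0.001 to 1.51; edgeR unadjusted p = 0.0502, adjusted p = 0.998). This was the smallest p of the 8 genes and ranked 393 among the 14818 tested. Without MgPA-Gel 2 the log2 fold change was 0.35.

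RefSeq places the start of Tfrc at 1 site and that of Slc11a2 at 2 sites, whose transcripts the gene counts add together. The 250 bases before each start are shown because these 2 uptake genes took opposite extremes in MgPA-Gel 2. They come from RefSeq windows of the GRCr8 build, printed in the direction of the gene: chr11:81690319-81690568 for Tfrc, chr7:133418940-133419189 for the upstream start of Slc11a2 (start 1) and chr7:133417789-133418038 for the downstream one (start 2), all on the minus strand. Capitals mark matches on either strand to TGACGT, the core bound by CREB and ATF factors, and GGGCGG, the GC box bound by Sp1; the motifs do not overlap in these windows.
Tfrc: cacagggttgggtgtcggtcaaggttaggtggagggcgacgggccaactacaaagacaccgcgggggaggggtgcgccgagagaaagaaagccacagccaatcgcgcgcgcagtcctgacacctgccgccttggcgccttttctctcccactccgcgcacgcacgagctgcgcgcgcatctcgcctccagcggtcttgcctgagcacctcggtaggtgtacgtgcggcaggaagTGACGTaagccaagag
Slc11a2 start 1: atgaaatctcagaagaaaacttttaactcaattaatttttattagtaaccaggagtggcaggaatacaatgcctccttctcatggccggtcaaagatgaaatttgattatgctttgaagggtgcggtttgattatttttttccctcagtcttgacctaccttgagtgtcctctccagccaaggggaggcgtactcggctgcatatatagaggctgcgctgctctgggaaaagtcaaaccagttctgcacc
Slc11a2 start 2: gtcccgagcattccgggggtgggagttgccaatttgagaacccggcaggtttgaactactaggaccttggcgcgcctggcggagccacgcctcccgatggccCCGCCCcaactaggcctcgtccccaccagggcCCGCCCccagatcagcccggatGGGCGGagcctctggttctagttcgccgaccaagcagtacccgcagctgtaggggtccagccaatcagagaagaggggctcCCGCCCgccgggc
The Tfrc window held 1 match to TGACGT, 16 to 11 bases before the start, and none to GGGCGG. Of the windows of this length before all 33469 RefSeq starts, 6.95% held TGACGT and 30.5% held GGGCGG. Start 2 of Slc11a2 held 4 matches to GGGCGG and had a GC content of 68.0%, whereas start 1 held neither motif and had a GC content of 43.6%. A match is a run of letters and was not shown to bind a factor in this tissue. Of the 10 genes, 6 have a window in this table.

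Slc11a1 (ENSRNOG00000014956, chromosome 9, 81655629 to 81666706, plus strand), or NRAMP1, moves metal across the phagosome membrane of macrophages and neutrophils. Its levels were 21.0, 27.9 and 19.3 CPM in Gel 1, 2 and 3 and 14.3, 42.8 and 18.6 CPM in MgPA-Gel 1, 2 and 3. As with Tfrc, both extremes were MgPA-Gel libraries, here with MgPA-Gel 2 highest and MgPA-Gel 1 lowest. The log2 fold change was 0.15 ± 0.42 (95% interval -0.85 to 1.15, edgeR adjusted p = 0.998), and -0.47 without MgPA-Gel 2. Macrophage markers, 11 of 12 matched and none at 0 throughout, summed to 1159 to 1331 CPM in Gel and to 1098, 1153 and 1923 CPM in MgPA-Gel 1, 2 and 3. In MgPA-Gel 2, Mrc1, Cd163 and Mertk were at their highest of the 6 libraries, and Cd68, Csf1r and Vsig4 at their lowest. The summed neutrophil markers were also highest in MgPA-Gel 2, as were 7 of the 12 genes taken singly. Mpo, Elane, Camp and Ngp were instead highest in MgPA-Gel 1 (22.5, 3.75, 31.8 and 17.9 CPM, against 3.03, 3.03, 6.44 and 3.85 in MgPA-Gel 2), and Ltf was near 0. The part of either cell type in the level of Slc11a1 was not tested.

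**Figure D2:**
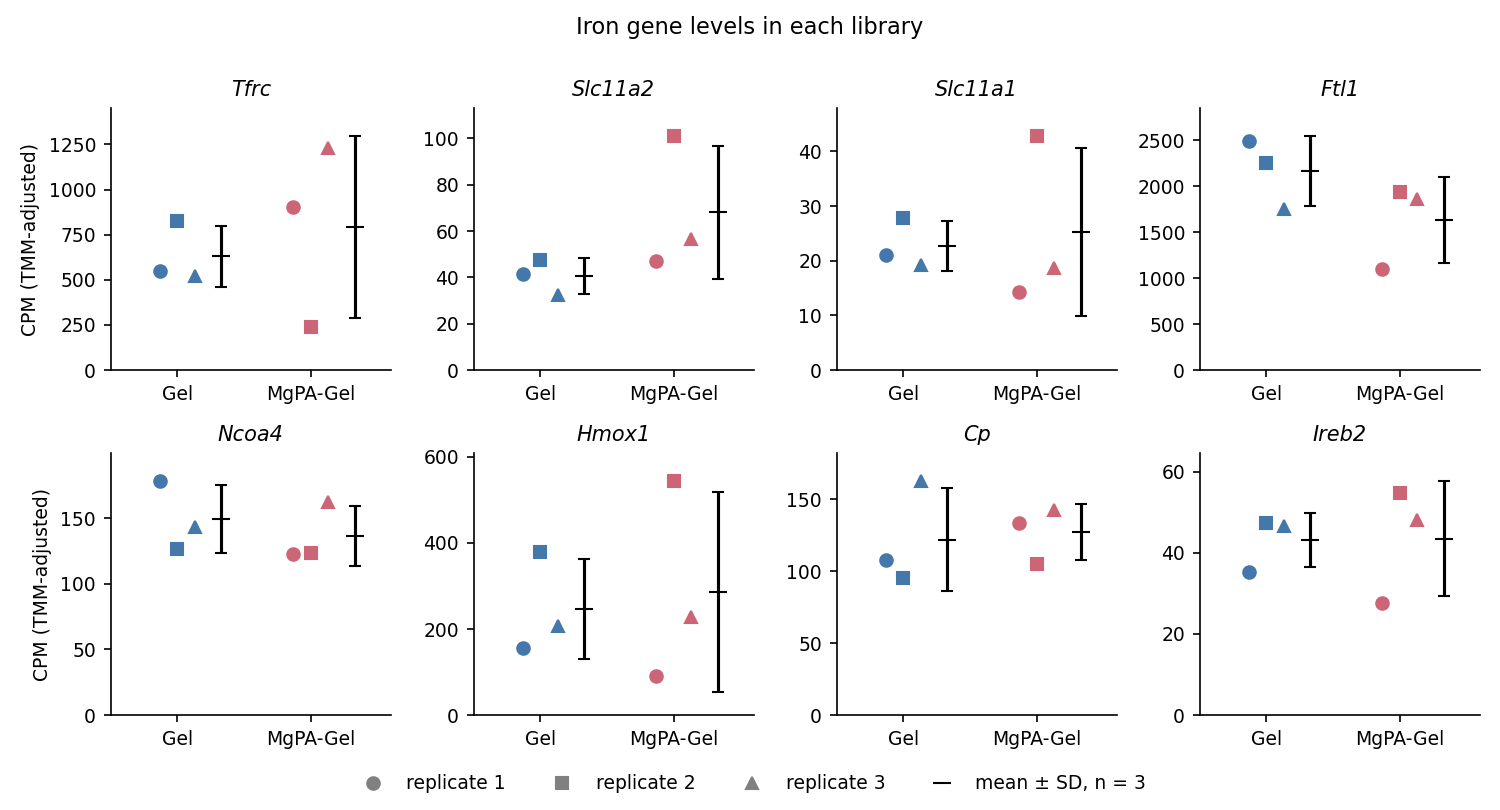
CPM of the 8 iron genes with counts in each library, 1 panel per gene on an axis from 0, with points for the 3 Gel and 3 MgPA-Gel libraries (shape, replicate number) and a bar for the mean ± SD. The groups overlap in all 8 panels, and MgPA-Gel 2 (square) is the highest library for Slc11a2, Slc11a1, Hmox1 and Ireb2 and the lowest for Tfrc.

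Storage was represented by Ftl1, with its partner Fth1 listed at 0. Ftl1 (ENSRNOG00000020843, chromosome 1, 101448346 to 101449829, minus strand), the ferritin light chain that helps the iron core form, was at 2494, 2250 and 1748 CPM in Gel 1, 2 and 3 and at 1095, 1941 and 1865 CPM in MgPA-Gel 1, 2 and 3. MgPA-Gel 1 was the lowest library, while MgPA-Gel 2 and 3 lay above Gel 3. The log2 fold change was -0.41 ± 0.31 (95% interval -1.13 to 0.32, edgeR adjusted p = 0.998; means 2164 ± 381 and 1633 ± 468 CPM). It was -0.19 without MgPA-Gel 1, the library of highest muscle content, and -0.092 without both libraries of high mitochondrial share. Another 31 rows of the table name the ferritin light chain in their description, and the table types them as microRNA or protein-coding genes. Their counts together came to 2.15% to 4.20% of those of Ftl1 in a library, the highest share being in MgPA-Gel 1. The largest of these rows, AC128792.1, typed as microRNA, overlaps Ftl1 itself by 91 bases on the same strand. It held 1326 of their 5232 counts over all libraries, and 324 of 735 within MgPA-Gel 1 alone. How reads were divided in this overlap, and its part in that highest share, were not tested. Reads that match several copies may have been left out or split by the authors' counting, so the level of Ftl1 is uncertain.

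Fth1 (ENSRNOG00000022619, chromosome 1, 226030938 to 226033228, plus strand) encodes the ferritin heavy chain, which oxidizes iron as it enters the shell and is made by nearly all cells. Its 0 is therefore given as the deposited value and not as a level of the mRNA. A count of 0 allows up to 3 counts, or 0.165 to 0.220 CPM by library total, for counting error only. The whole span of the Fth1 row lies inside that of Best1, a chloride channel gene on the opposite strand, and the labels used here do not say whether the kit keeps strand; whether reads were lost to this overlap was not tested. Best1 itself had 45, 334 and 28 counts in Gel 1, 2 and 3, against counts of 121, 1005 and 169 for MgPA-Gel 1, 2 and 3. A processed pseudogene of the heavy chain, AABR07054189.1, held 513, 750 and 307 counts in Gel 1, 2 and 3, against counts of 264, 824 and 499 for MgPA-Gel 1, 2 and 3 (log2 fold change -0.048 ± 0.44). Which of these reads arose from Fth1 was not tested.

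Ncoa4 (ENSRNOG00000019768, chromosome 16, 8302950 to 8323293, plus strand), the receptor that delivers ferritin to lysosomes so that its iron is set free, was the steadiest of the 8 genes. It stood at 178, 127 and 143 CPM in Gel 1, 2 and 3 and at 123, 123 and 162 CPM in MgPA-Gel 1, 2 and 3. Its highest library was 1.45 times its lowest, and the groups overlapped. The log2 fold change was -0.13 ± 0.21 (95% interval -0.62 to 0.36, edgeR adjusted p = 0.998).

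Hmox1 (ENSRNOG00000014117, chromosome 19, 14508616 to 14515456, plus strand), the inducible haem oxygenase that frees iron from haem, varied most. It was at 156, 379 and 206 CPM in Gel 1, 2 and 3 and at 89.9, 543 and 227 CPM in MgPA-Gel 1, 2 and 3. The range within MgPA-Gel was 6.04-fold and that within Gel was 2.43-fold, with MgPA-Gel 2 and Gel 2 the high libraries and MgPA-Gel 1 the low one. Means of 247 ± 117 and 287 ± 232 CPM gave a log2 fold change of 0.21 ± 0.66 (95% interval -1.37 to 1.80, edgeR adjusted p = 0.998), which was -0.64 without MgPA-Gel 2. Both libraries high in Hmox1 were low in erythroid markers compared with Gel 1, Gel 3 and MgPA-Gel 1 (347 and 1978 CPM against 7662, 5782 and 10412). MgPA-Gel 3, the next in Hmox1 (227 CPM, just above the 206 of Gel 3), was low in erythroid markers as well (899 CPM). A link between Hmox1 and erythroid content was not tested. Slc7a11, the cystine importer that shares the NRF2 factor with Hmox1 and the ferritins, had a different pattern, with 3.905, 4.33 and 1.47 CPM across Gel 1 to 3 but 13.2, 18.0 and 18.2 CPM across MgPA-Gel 1 to 3 (log2 fold change 2.34 ± 0.42, edgeR adjusted p = 0.998). Its edgeR unadjusted p was 0.000953, where the smallest of the 8 iron genes was 0.0502. DESeq2 called Slc7a11 (log2 fold change 2.34, DESeq2 adjusted p = 0.000707) and called none of the iron genes.

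Export of iron needs ferroportin, encoded by Slc40a1, and a ferroxidase such as ceruloplasmin. The row named Slc40a1 (ENSRNOG00000049995, chromosome 9, 52820683 to 52830457, minus strand) was listed at 0 counts in all libraries. The deposited table holds a further row described as solute carrier family 40 member 1, named NEWGENE_620180 (ENSRNOG00000003872, chromosome 9, 52894365 to 52912293, minus strand), and RefSeq lists a single Slc40a1 gene in the rat. This row was found after the values were seen and is not among the 10 genes. It had 238, 155 and 481 counts in Gel 1, 2 and 3 and 212, 411 and 191 counts in MgPA-Gel 1, 2 and 3, or 16.3, 8.95, 35.2, 13.2, 25.9 and 11.2 CPM in that order. Gel 3 was the highest library and Gel 2 the lowest, so the Gel group spanned the MgPA-Gel group. The log2 fold change was -0.26 ± 0.55 (95% interval -1.58 to 1.05, edgeR adjusted p = 0.998), and it turned to 0.39 without Gel 3. The 0 of the row named Slc40a1 is given as the deposited value, and how reads were divided between these rows was not tested.

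Cp (ENSRNOG00000011913, chromosome 2, 104744461 to 104799853, plus strand), ceruloplasmin, is the copper ferroxidase that lets exported iron load onto transferrin and is best known as a liver product. It stood at 108, 95.6 and 162 CPM in Gel 1, 2 and 3 and at 134, 105 and 143 CPM in MgPA-Gel 1, 2 and 3. The MgPA-Gel libraries all lay inside the range of the Gel libraries. The log2 fold change was 0.061 ± 0.25 (95% interval -0.53 to 0.65, edgeR adjusted p = 0.998). Hps3, on the other strand, shares 18.8% of the span of Cp and had 210 to 263 counts per library beside 1575 to 2441 for Cp.

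Ireb2 (ENSRNOG00000013271, chromosome 8, 59420123 to 59501118, plus strand), iron regulatory protein IRP2, is controlled mainly by degradation of the protein, which mRNA counts do not show. Its mRNA was at 35.4, 47.4 and 46.5 CPM in Gel 1, 2 and 3 and at 27.6, 54.7 and 48.0 CPM in MgPA-Gel 1, 2 and 3. The means of 43.1 ± 6.73 and 43.5 ± 14.1 CPM were nearly equal, with a log2 fold change of 0.012 ± 0.28 (95% interval -0.65 to 0.67, edgeR adjusted p = 0.998).

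Across the 8 genes tested, 6 were higher and 2 lower in MgPA-Gel. Their median log2 fold change was 0.11, beside 0.033 over all 14818 genes, of which 54.8% were higher. With edgeR's quasi-likelihood test, 0 of the 8 passed a Benjamini-Hochberg adjusted p of 0.05, as did 0% of all genes. At an unadjusted p of 0.05, edgeR counted 0 of the 8 and 2.63% of all genes, or 389 (1.78% higher and 0.844% lower). The count was 1 of 8 under 8 of the 20 alternatives, for Slc11a2 under 7 of them (edgeR or DESeq2 unadjusted p from 0.0179) and for Tfrc under 1 (edgeR unadjusted p = 0.0435 without MgPA-Gel 2). Under those 8, the same threshold counted from 256 of 11988 genes (at least 50 counts in 3 libraries) to 756 of 15322 (without MgPA-Gel 2). DESeq2 called 0 of the 8 and 0.0681% of the genes to which it gave an adjusted p (10 genes), and limma-voom called 0 of all genes. In 0 of the 8 did the groups not overlap, where 6.88% of all genes did not (3.26% higher and 3.62% lower). The 95% intervals allow changes of about 2-fold or more for Tfrc, Slc11a1, Slc11a2, Ftl1 and Hmox1, so changes of that size are not excluded in at least 1 direction, and similar means do not show that the groups were alike.

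**Figure D3:**
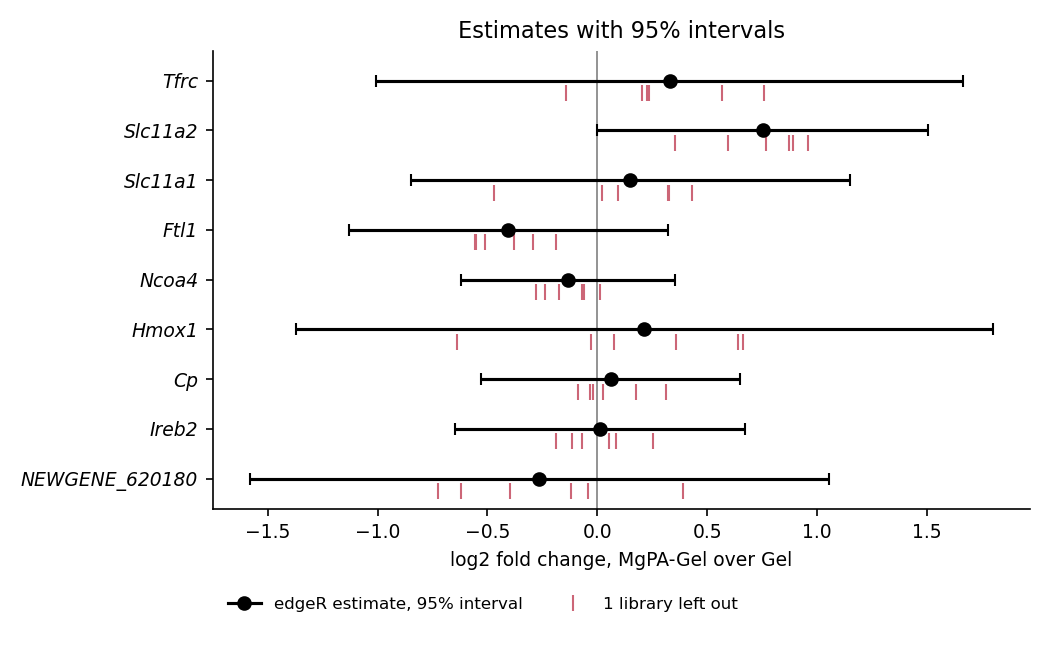
Log2 fold change of MgPA-Gel over Gel for the 8 iron genes and for NEWGENE_620180, the further row described as solute carrier family 40 member 1, with the 95% interval from edgeR (black) and the estimates with each of the 6 libraries left out (red ticks). Every black interval includes 0, the one of Slc11a2 (-0.001 to 1.51) only just.

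Spread between libraries was as follows: the highest library was over 2 times the lowest in 5 of the 8, as it was in 48.2% of all genes tested, and over 4 times in 2 of the 8, Tfrc and Hmox1, against 19.4%. The median of this ratio was 2.63 over the 8 genes and 1.96 over all genes. MgPA-Gel 2 was the highest library for 4 of the 8 (Slc11a2, Slc11a1, Hmox1 and Ireb2), where it was highest for 23% of all genes. MgPA-Gel 1 was the lowest library for 5 of the 8 (Slc11a1, Ftl1, Ncoa4, Hmox1 and Ireb2), where it was lowest for 28.3% of all genes. None of the 8 was highest in Gel 2 or MgPA-Gel 1, as 8.61% and 27% of all genes were. None was lowest in Gel 1 or MgPA-Gel 3, as 14.2% and 11.4% were. By summed markers, MgPA-Gel 2 was also lowest for osteoclasts and highest for neutrophils, and MgPA-Gel 1 was highest for muscle. How far tissue content sets these levels was not tested.

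**Figure D4:**
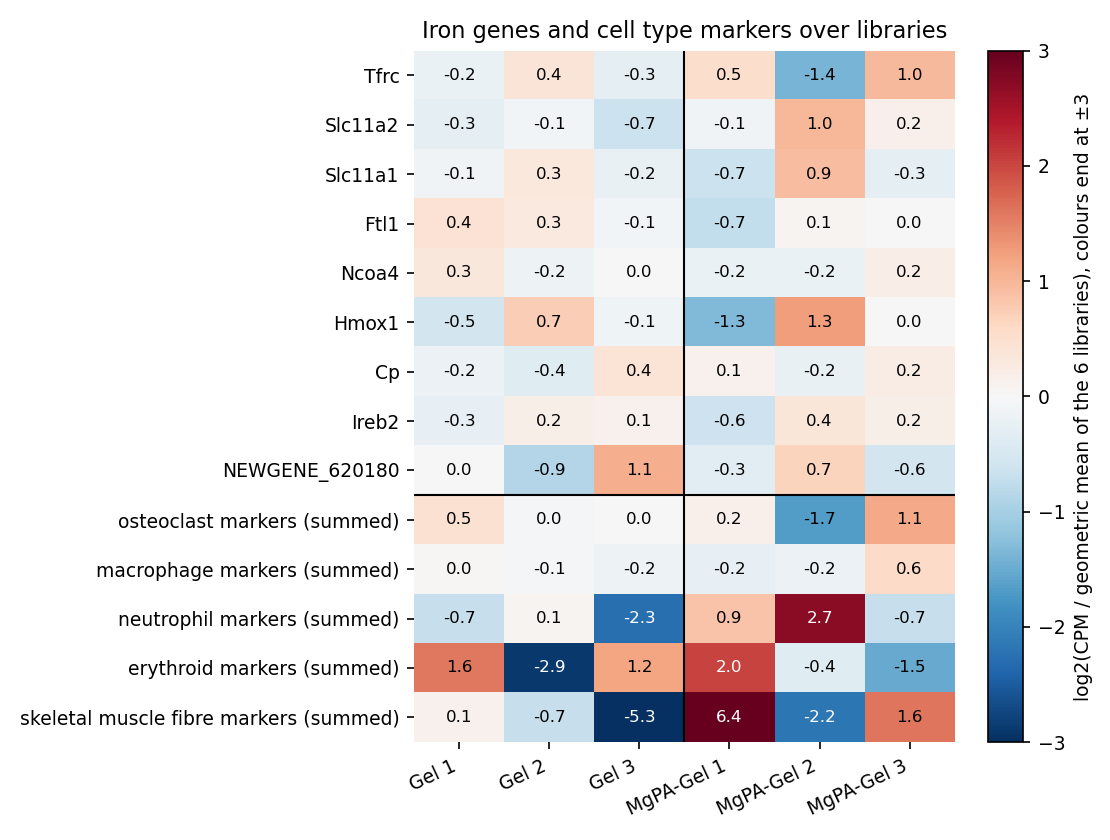
Heat map of log2(CPM over the geometric mean of the 6 libraries) for the 8 iron genes, NEWGENE_620180 and the summed markers of 5 cell types (rows) in the 6 libraries (columns); colours end at ±3 and the numbers are the values. Tfrc and the osteoclast markers are both lowest in MgPA-Gel 2 (-1.4 and -1.7) and highest in MgPA-Gel 3 (1.0 and 1.1), while Hmox1 is highest in MgPA-Gel 2 (1.3) and lowest in MgPA-Gel 1 (-1.3).

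For each of the 4 genes of widest range, the 3 genes of closest pattern were found by Pearson correlation of log2 CPM over the 6 libraries, among 11457 genes. Slc11a2 was closest to Csrnp1 (r = 0.997), Ier2 (0.993) and Dusp1 (0.993), all known as genes induced within minutes of stimulation; Dusp1 was at 118 to 190 CPM in Gel and at 222, 808 and 269 CPM in MgPA-Gel 1, 2 and 3. For Hmox1, Shisa5 (0.994) and Adam19 (0.991) are given. Slc11a1 was closest to Avpr1a (0.996), Ralb (0.995) and Adora2b (0.990), and Tfrc to Zfp688, Rbm28 and Clcn3 (0.978, 0.976 and 0.975). With so few libraries such values are common: 409, 363, 326 and 41 of the genes reached 0.9 with Hmox1, Slc11a1, Slc11a2 and Tfrc, and all share library composition and depth.

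A further 55 genes of iron handling were examined in 5 lists, of which 54 were in the table and 50 were tested. None passed (edgeR adjusted p = 0.998 for each, 0 called by DESeq2), while 3 had an unadjusted p under 0.05 (Erfe, Hjv and Alas1) against 2.63% of all genes. Of these 3 genes alone, from 0 to 3 stayed under 0.05 over the alternatives, with 0 without Gel 3 and 0 with the muscle markers as a covariate. The count over all 50 was not redone, and Tf came under 0.05 in 2 of the 20 alternatives, 1 of them that covariate (edgeR unadjusted p = 0.0175). By mean, 34 of the 50 were higher and 16 lower in MgPA-Gel, and the median log2 fold change was 0.096. The groups did not overlap in 3 of them, Erfe and Alas1 (higher) and Blvra (lower), the last named after its values were seen, against 6.88% of all genes.

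Among 12 tested genes of uptake and reduction, 7 were higher and 5 lower (median 0.10), and the 2 of highest FPKM were Lcn2, a siderophore-binding protein that is also in the neutrophil list, and transferrin, Tf. Transferrin mRNA was 131, 124 and 130 CPM across Gel 1 to 3 but 130, 344 and 148 CPM across MgPA-Gel 1 to 3, and its log2 fold change of 0.69 ± 0.38 became 0.11 without MgPA-Gel 2. Lcn2 was 84.4, 226 and 16.5 CPM across Gel 1 to 3 and 79.1, 465 and 97.6 CPM across MgPA-Gel 1 to 3 (0.97 ± 1.07, and -0.31 without MgPA-Gel 2). Like Slc11a2, Slc11a1 and Hmox1, both had their highest level in MgPA-Gel 2, as 23% of all genes did.

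Of 13 genes of haem handling, 8 were higher and 5 lower (median 0.020), with Lrp1, a receptor that clears haem bound to haemopexin, at 0.020 ± 0.38 and Nfe2l2, which encodes NRF2, at 0.66 ± 0.46. Nfe2l2 was 80.4, 98.8 and 81.0 CPM across Gel 1 to 3 and 86.8, 249 and 76.1 CPM across MgPA-Gel 1 to 3, highest in MgPA-Gel 2. How often that library was the highest was not counted over the lists. Of 5 tested genes of ferritin delivery and iron sensing, 3 were higher and 2 lower (median 0.074), with Pcbp2, a chaperone that hands iron to ferritin, at -0.16 ± 0.16 and Epas1, the hypoxia factor HIF-2 alpha whose mRNA carries an iron-responsive hairpin, at 0.084 ± 0.24.

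In the list of export and the hepcidin axis, 5 of 7 tested genes were higher (median 0.087), and Hamp, the liver hormone hepcidin that closes ferroportin, was at 0 in all libraries. Hjv, haemojuvelin, a hepcidin regulator that skeletal muscle also makes, was 1.64, 1.85 and 0.147 CPM across Gel 1 to 3 but 241, 0.379 and 11.002 CPM across MgPA-Gel 1 to 3, the order of the muscle fibre markers (524, 297 and 11.9 CPM in Gel and 41630, 106 and 1460 CPM in MgPA-Gel) except that Gel 1 and Gel 2 change places. Its log2 fold change of 6.08 ± 2.24 became 2.21 without MgPA-Gel 1 and 0.41 with the muscle markers as a covariate. Erfe, erythroferrone, a suppressor of hepcidin, was low throughout, at 0.733 to 1.37 CPM in Gel and 2.15 to 2.57 CPM in MgPA-Gel (1.14 ± 0.42).

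Mitochondrial iron, haem and iron-sulphur cluster genes were higher in 11 of 13 (median 0.23). Alas1, the first enzyme of haem synthesis outside the erythroid lineage, was 27.1, 28.9 and 18.8 CPM across Gel 1 to 3 but 30.2, 42.2 and 40.2 CPM across MgPA-Gel 1 to 3, with no overlap (0.59 ± 0.23, edgeR unadjusted p = 0.0369, adjusted p = 0.998). Its erythroid counterpart Alas2, named after its values were seen, ran from 0.924 CPM in Gel 2 to 115 CPM in MgPA-Gel 1, with erythroid markers lowest and highest in the same libraries.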

How the data were processed

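RNA was measured in 6 libraries, 3 Gel and 3 MgPA-Gel, grouped by their titles. The authors deposited whole counts per gene, not normalized, and FPKM of those 34538 genes. Besides them, the counts came with 11692 blank rows that sum to 0 and 2 unnamed columns, neither used here. In the deposited FPKM, each count is scaled by gene length and by a library size that is not the total count. The authors' tools, without their order or settings, were, per the submitters' processing notes, HISAT2 2.0.5, fastp, featureCounts 1.5.0-p3, StringTie 1.3.3b, edgeR 3.22.5 and DESeq2 1.20.0. No build is named there.

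The main test ran in R 4.3.3 with edgeR 4.0.16: filterByExpr (14818 genes kept), TMM factors, robust glmQLFit and glmQLFTest, two-sided, with Benjamini-Hochberg adjustment over all genes tested and a threshold of 0.05. The SE was taken from the log2 fold change and its F value, and the 95% interval from the SE and the fit's degrees of freedom. The script was tested on simulated counts drawn with a common spread for all genes, without the outlying libraries seen here. Alternatives used DESeq2 1.42.0, limma 3.58.1 (voom, and log2(FPKM + 1) and log2(FPKM + 0.1)), other factors and filters, covariates, a replicate block and libraries left out.

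The members, lists, alternatives and naming rule were chosen with earlier results of these data known. The rule named all 10 genes, and from each list up to 3 genes at an unadjusted p under 0.05 or else the 2 of highest FPKM. Total counts of 13629242 to 18197777 leave the spread between libraries, 41.3% as the common biological coefficient of variation, as the main limit for genes of many counts. Intervals on counts and floors cover counting error only. One of the genes that the rule named for likeness to Hmox1 is not reported here.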

Additional observations from a re-analysis of the deposited data

How the results depend on the processing

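None of the 8 genes passed the threshold under any of the 20 alternatives, and neither did any of the 50 further iron genes. The number of all genes past it was 0 in the main analysis, 10 with DESeq2 and from 0 to 2 with 1 library left out. Slc7a11 was called with DESeq2 (2.34). Slc11a2 (0.35 to 0.96) and Ftl1 (-0.56 to -0.092) kept their direction under all 20, and 25 of the 160 values of the 8 genes changed sign. The cause was not tested.

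With each library left out in turn, log2 fold changes ran from -0.14 to 0.76 for Tfrc, -0.64 to 0.66 for Hmox1, -0.47 to 0.43 for Slc11a1, -0.088 to 0.31 for Cp, -0.19 to 0.25 for Ireb2 and -0.28 to 0.012 for Ncoa4. They ran from -0.72 to 0.39 for NEWGENE_620180, -0.56 to 0.27 for AABR07054189.1, -0.31 to 2.08 for Lcn2, -0.30 to 0.31 for Lrp1, -0.093 to 0.95 for Nfe2l2 and -0.092 to 0.22 for Epas1. Adjusted for muscle fibre markers, the value was -0.29 for Tfrc, 0.42 for NEWGENE_620180 and 0.17 for AABR07054189.1. Without Gel 3 and MgPA-Gel 1, it was 0.52 for NEWGENE_620180 and 0.021 for AABR07054189.1. Without Gel 1 and MgPA-Gel 1, it was -0.075 for Cp, 0.064 for Ncoa4 and 0.28 for AABR07054189.1.

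With limma-voom, the values were -0.037 for Hmox1, -0.035 for Ireb2, -0.010 for Slc11a1 and -0.038 for Lrp1. On log2(FPKM + 1) they were -0.048 for Hmox1, -0.033 for Ireb2 and -0.046 for Lrp1, and on log2(FPKM + 0.1) they were -0.050, -0.039 and -0.048. Without mitochondrial genes, Ireb2 was at -0.010 and Lrp1 at -0.0027, and with high mitochondrial share as a term they were at -0.031 and -0.037.

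With the replicate number as a block, Hmox1 was at -0.041, Ireb2 at -0.033 and Lrp1 at -0.043, and the block called 0 genes, as did the fit without it. Deviations of libraries with the same number correlated at 0.249, 0.200 and -0.0266, and those with different numbers at -0.286 to 0.0591. The numbers were not taken to pair the libraries, because the labels give no shared animal, litter or day. Of Erfe, Hjv and Alas1, only Alas1 had an unadjusted p under 0.05 with the block (edgeR unadjusted p = 0.0661, 0.207 and 0.0452). Erfe and Hjv did not pass the filter of 50 counts in 3 libraries.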
